A study of Rattus norvegicus with 18 samples.

Results

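The isoforms described here were those listed at a higher level in the neuropil than in the somata of hippocampal area CA1 in every library. Of the 28268 full-length transcript (FLT) isoforms in the rat hippocampus collection, 680 (2.41%) were selected. The rule required that the lower of the 2 CA1 neuropil libraries was at least 5 TPM and at least 2 times the higher of the 2 CA1 somata libraries. TPM is the share of a library's transcripts taken by one isoform after correction for its length. Because the isoforms were selected on these 4 libraries, their neuropil and somata levels are described without a test, and no result is read from that difference.

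The neuropil of CA1 is the layer of dendrites, axons and synapses that lies beside the packed cell bodies of the pyramidal neurons. Dendrites and axons carry mRNAs and ribosomes and make part of their proteins locally, far from the nucleus. The same layer also holds whole cells, among them astrocytes, microglia, oligodendrocytes, interneurons and the cells of blood vessels, so RNA dissected from it comes from neuronal processes and from the bodies of those cells. On mRNAs, a single ribosome forms a monosome and several ribosomes form a polysome, and a sucrose gradient separates both from RNA that carries no ribosome.

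All samples came from male Sprague Dawley rats of 4 weeks without an experimental treatment, and the groups are defined by tissue, layer or gradient fraction. The somata and neuropil layers of CA1 were cut by hand from hippocampal slices, with 2 replicate libraries each. Whole hippocampus gave 2 libraries. A lysate of whole brain was separated into ribosome-free RNA, monosomes and polysomes, with 2 libraries each. By the study's methods, libraries of hippocampal RNA were made with an Illumina kit for mRNA and those of the fractions with one for total RNA, so tissue and fraction levels also differ in the type of library. Nothing in the labels says that replicates came from different animals, so p-values measure the spread between these libraries, which may be technical. The fractions came from whole brain, and the ribosome association of an isoform there is not that of its copies in CA1 neuropil. Sequencing depth is unknown, since TPM keep no read counts.

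Among the selected isoforms, the median of the mean neuropil level was 16.2 TPM and that of the mean somata level 3.05 TPM. The lower neuropil library was between 5 and 10 TPM for 265 isoforms, from 10 to 50 TPM for 316 and 50 TPM or more for 99, of which 41 reached 100 TPM. Most of the selected isoforms were therefore under 50 TPM in the lower neuropil library, where the median was 12.7 TPM. The ratio of the lower neuropil to the higher somata library was under 3 for 388 isoforms, from 3 to 5 for 113, from 5 to 10 for 29 and 10 or more for another 29. The median ratio was 2.47 over the 559 isoforms with a somata value above 0. Both somata libraries listed 121 isoforms at 0 TPM. A value of 0 is an estimate by RSEM, the program that shared the reads out among isoforms, and an isoform can be listed at 0 because its reads were given to a similar isoform. Neuropil replicate 1 was the higher of the pair for 409 of the 680 isoforms (60.1%). The higher somata value came from replicate 1 for 282 isoforms and from replicate 2 for 277.

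Isoforms on both sides of the limits had nearly the same values. Just inside the ratio was an isoform at 217 and 219 TPM in the somata and at 439 and 441 TPM in the neuropil, a ratio of 2.002. Just outside was one at 13.1 and 13.7 TPM in the somata and at 27.4 and 32.4 TPM in the neuropil, a ratio of 1.999. At the limit on the level, an isoform at 0 TPM in the somata entered with 5 and 5.21 TPM in the neuropil, and another at 0 in the somata stayed out with 13.3 and 4.99 TPM. Of the 11574 isoforms at 5 TPM or more in both neuropil libraries, 5.88% met the ratio. The same rule turned around, higher in both somata libraries, took 455 isoforms.

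**Figure D1:**
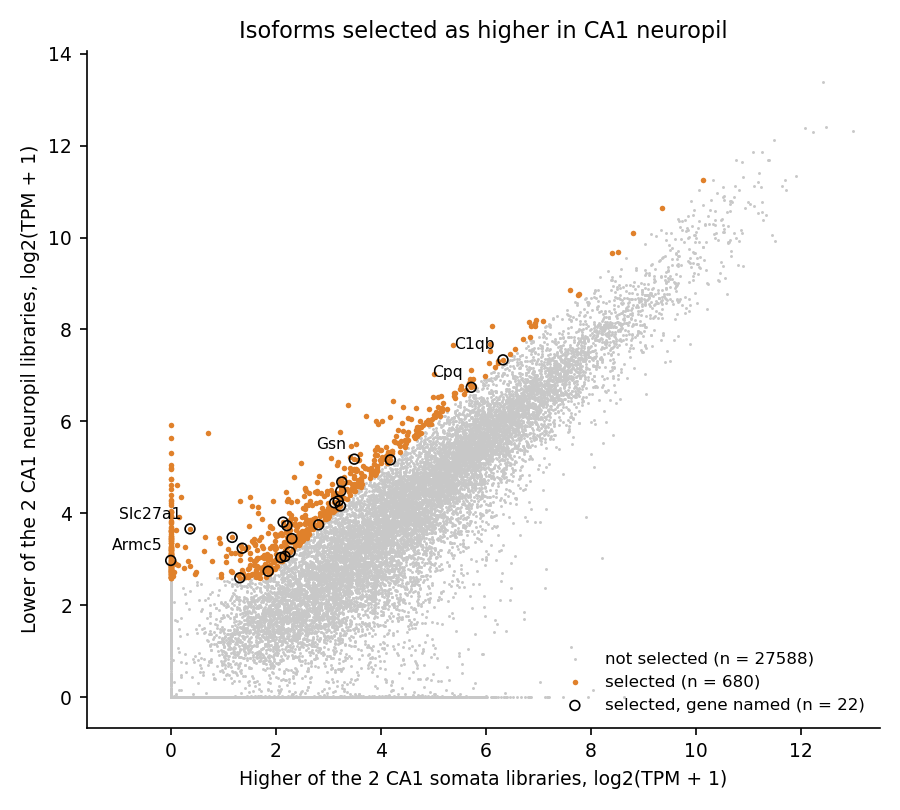
Each point is one isoform, placed by the higher of its 2 somata values (horizontal axis) and the lower of its 2 neuropil values (vertical axis), both as log2(TPM + 1). The 680 selected isoforms (orange) form the upper edge of the cloud and a column at 0 in the somata, and the 22 with a gene name (open circles) lie along that edge.

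The count of selected isoforms moved with the limits and with the scaling. A ratio of 3 left 292 isoforms and a ratio of 1.5 took 1506, whereas limits of 10 and 1 TPM gave 415 and 1072. Quantile normalization of the 4 libraries gave 582 isoforms, 568 of them among the 680, and scaling by median ratios gave 644, with 642 shared. With only 1 neuropil library the rule took 1667 isoforms without replicate 1 and 2490 without replicate 2, so agreement between both neuropil libraries removed most candidates.

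The deposited tables carry no gene names. Isoforms were named only through the lists of the study's Supplementary Data 1, on isoforms whose altered N terminus gains or loses a predicted signal peptide, and Supplementary Data 2, on conserved new reading frames. A signal peptide directs a protein into the secretory pathway. The lists paired 551 isoforms with 390 genes, and 22 of them, from 21 genes, were among the selected isoforms, 21 in the first list and 1 in the second. That is 3.99% of the listed isoforms beside 2.41% of all isoforms, without a test. Of the isoforms that gained a signal peptide, 6 of 140 were selected, and of those that lost one, 15 of 384. N-terminal extensions with a gain contributed 4 of 28, and truncations with a loss 12 of 325. As the first list was built on signal peptides, genes for secreted and membrane proteins were bound to be frequent among these names. All 21 symbols were found in RefSeq. The remaining 658 selected isoforms are called here by the length of their read.

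Of the named isoforms from genes for extracellular proteins, that of C1qb was the most abundant in both layers. The C1qb isoform of 1146 nt, for a chain of the complement protein C1q, was at 79.3 and 77.5 TPM in the somata and at 182 and 161 TPM in the neuropil. Whole hippocampus gave 67.1 and 55.9 TPM, below both layers. C1q is made by microglia in the brain. The Lgi4 isoform of 3699 nt, from the gene of a secreted ligand of glial cells, was at 8.86 and 17.2 TPM in the somata, at 48.3 and 34.8 TPM in the neuropil and at 15.7 and 23.8 TPM in whole hippocampus. A second selected Lgi4 isoform, of 2541 nt, was lower, with 0 and 1.57 TPM in the somata and 9.69 and 8.44 TPM in the neuropil. Both Lgi4 isoforms, and those of Vtn and Tinagl1 that follow, are listed as N-terminal truncations with loss of the signal peptide, whereas those of C1qb and Emilin1 are listed as extensions with a gain. The Vtn isoform, from the gene of the extracellular glycoprotein vitronectin, was at 7.41 and 8.56 TPM in the somata and at 24.6 and 31.7 TPM in the neuropil, but was listed at 0 in both hippocampus libraries. For Emilin1, a protein of elastic fibres, the somata gave 3.95 and 3.73 TPM and the neuropil 10.5 and 9.91 TPM. The Tinagl1 isoform, from the gene of a matricellular protein, stood at 4.29 and 8.39 TPM against 16.9 and 19.8 TPM, a ratio of 2.01 that is close to the limit.

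Isoforms from genes for lysosomal, membrane and other secretory pathway proteins came next, and of these only that of Krtcap2 is listed with a gain of the signal peptide. The Cpq isoform of 1423 nt, for the peptidase carboxypeptidase Q, was at 51.8 TPM in both somata libraries and at 118 and 106 TPM in the neuropil. Its hippocampus values of 75.9 and 60.2 TPM lay between the layers. The Dpp7 isoform of 1916 nt, for a dipeptidyl peptidase, had 8.12 and 7.15 TPM in the somata and 21.8 and 18.3 TPM in the neuropil. For Glmp, a lysosomal membrane glycoprotein, 3.41 and 0 TPM stood against 13.0 and 14.9 TPM. Slc27a1 encodes a fatty acid transport protein, and its ratio of 40.1 was the highest among the named isoforms with a somata value above 0. Its isoform of 2674 nt was at 0 and 0.29 TPM in the somata and at 11.6 and 24.1 TPM in the neuropil, while whole hippocampus held 16.3 and 17.7 TPM. The Ncstn isoform of 3158 nt, for the γ-secretase subunit nicastrin, was at 3.64 and 0 TPM in the somata, 12.3 and 13.0 TPM in the neuropil and 18.1 and 17.8 TPM in whole hippocampus. Both libraries of whole hippocampus were thus above both neuropil libraries for this isoform. The isoforms of Krtcap2 (an oligosaccharyltransferase subunit, 1161 nt), Erlin2 (a protein of the endoplasmic reticulum), Gpr108 (2697 nt), Fcgrt (the large chain of the neonatal Fc receptor, 3221 nt) and Shisa4 (1111 nt) were also selected. The Shisa4 isoform was uneven, with 0 and 8.43 TPM in the somata, 44.7 and 21.3 TPM in the neuropil and 0 and 25.9 TPM in whole hippocampus.

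Of the remaining named genes, Gsn encodes the actin-severing protein gelsolin, and its isoform of 5534 nt was at 8.84 and 10.3 TPM in the somata, 48.3 and 35.2 TPM in the neuropil and 65.9 and 31.1 TPM in whole hippocampus. The Ndrg2 isoform of 2206 nt, from a gene used as an astrocyte marker, was at 7.70 and 0.70 TPM in the somata and at 17.7 and 29.1 TPM in the neuropil. Med8 encodes a subunit of the Mediator complex, and its isoform of 1353 nt, with a conserved reading frame that differs from the annotated one, was at 0 and 1.25 TPM in the somata and at 17.4 and 10.1 TPM in the neuropil. The Armc5 isoform of 2491 nt was listed at 0 in both somata libraries and at 7.68 and 6.85 TPM in the neuropil. The isoform of Arih2, an E3 ubiquitin ligase, was at 0.94 and 3.52 TPM in the somata and at 25.1 and 7.35 TPM in the neuropil, more than 3 times apart between the replicates. The lowest of the named isoforms, that of Sh3tc1, had 2.23 and 2.62 TPM in the somata and 5.75 and 5.67 TPM in the neuropil. Of all 22, 14 were at 10 TPM or more in both neuropil libraries, and 8 remained with a ratio of 3. Quantile normalization kept 14 of the 22 and median ratios 19.

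The 2 lists also held 24 isoforms of 11 of these genes that were not selected, and none for the other 10 genes. In 3 of the 24 both neuropil libraries were above both somata libraries, in 2 the reverse held, and 19 overlapped or were listed at 0. Over all 28268 isoforms these shares were 16.8% and 16.5%. The 24 leave out selected isoforms by definition, so their count above cannot be compared with the first share. For Med8, the isoform of 2141 nt went the other way, with 37.9 and 41.8 TPM in the somata and 27.8 and 35.9 TPM in the neuropil. The Krtcap2 isoform of 673 nt was at 125 and 129 TPM in the somata and at 131 and 146 TPM in the neuropil, more than 10 times the selected isoform of 1161 nt in each of these 4 libraries. For Arih2, the isoform of 4058 nt overlapped between the layers, at 42.1 and 35.4 TPM in the somata and 26.6 and 41.02 TPM in the neuropil. The selected isoforms of Med8, Krtcap2 and Arih2 were therefore minor ones beside another listed isoform of the gene in the somata. So was that of Armc5, whose isoform of 2455 nt was at 17.5 and 21.55 TPM in the somata. In the neuropil the latter was at 21.7 and 21.6 TPM. For Shisa4, Ncstn and Gpr108 the isoforms of 1359, 2999 and 2109 nt were above the selected ones in both somata libraries. For Dpp7, Fcgrt, Gsn and Lgi4 no listed isoform outside the selection was above the selected ones in both somata libraries.

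**Figure D2:**
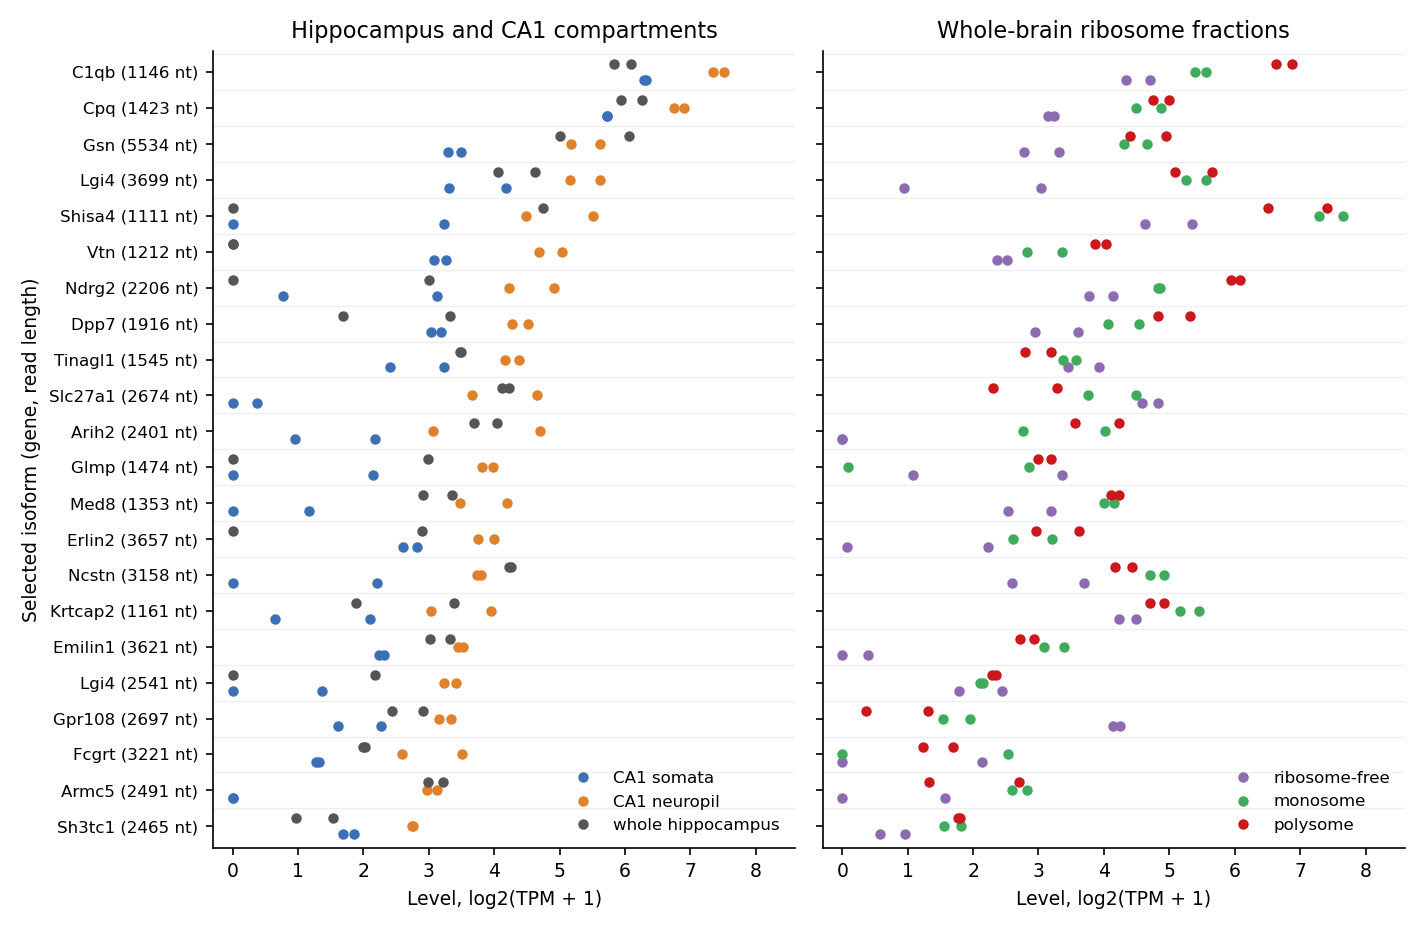
Levels of the 22 selected isoforms with a gene name, as log2(TPM + 1) with 1 point per library, for the CA1 layers and whole hippocampus (left) and the whole-brain fractions (right). Orange neuropil points lie to the right of the blue somata points by the rule, whereas the gray hippocampus points scatter, with 1 isoform (Vtn) at 0 in both libraries and 5 at 0 in 1 of them.

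Summed isoforms of astrocyte, oligodendrocyte and vascular marker genes were higher in both neuropil libraries than in both somata libraries. Only isoforms named in Supplementary Data 1 and 2 were summed, so the sums are not levels of whole genes. Such isoforms were found for 4 of 10 oligodendrocyte, 8 of 15 microglia, 8 of 11 vascular and 26 of 26 neuron genes. Some marker lists hold selected isoforms, and these are the libraries of the rule, so the counts below are a description. Across all 28268 isoforms, both neuropil libraries were above both somata libraries for 16.8% and below for 16.5%. The astrocyte list matched 21 isoforms of 16 of its 23 genes, and their summed level was 757 and 873 TPM in the somata and 1329 and 1568 TPM in the neuropil. Both neuropil libraries were above both somata libraries for 10 of these isoforms and below for 1. Summed microglia markers went from 98.1 and 107 TPM to 211 and 199 TPM, with 3 of 13 isoforms above and 1 below, but C1qb, a selected isoform, made up most of the sum. Without it the microglia sums were 18.8 and 29.9 TPM in the somata and 29.2 and 38.5 TPM in the neuropil, which overlap. Oligodendrocyte markers went from 172 and 171 TPM to 268 and 264 TPM, with 4 of 6 isoforms above and 1 below. Vascular markers went from 486 and 467 TPM to 765 and 783 TPM, with 5 of 11 above and 1 below. The neuron list differed in that 7 of its 42 isoforms were above and 19 below, at summed levels of 7613 and 7674 TPM in the somata and 7304 and 8258 TPM in the neuropil. Cpe, which encodes carboxypeptidase E, made up from 59.9% to 68.4% of that sum, and without it the neuropil sums, 2307 and 2634 TPM, lay below both somata sums, 3057 and 2874 TPM. Among the selected isoforms were 1 astrocyte (Ndrg2), 1 microglia (C1qb) and 1 oligodendrocyte (Gsn) marker and 0 neuron or vascular markers. Many defining markers, among them Gfap, Aqp4, Aif1, Cx3cr1, Mbp and Pecam1, could not be looked up because the lists that pair isoforms with genes do not hold them. The part of these cells in the selection was not tested. In such tissue samples, more cells of a type and more RNA per cell cannot be told apart.

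**Figure D3:**
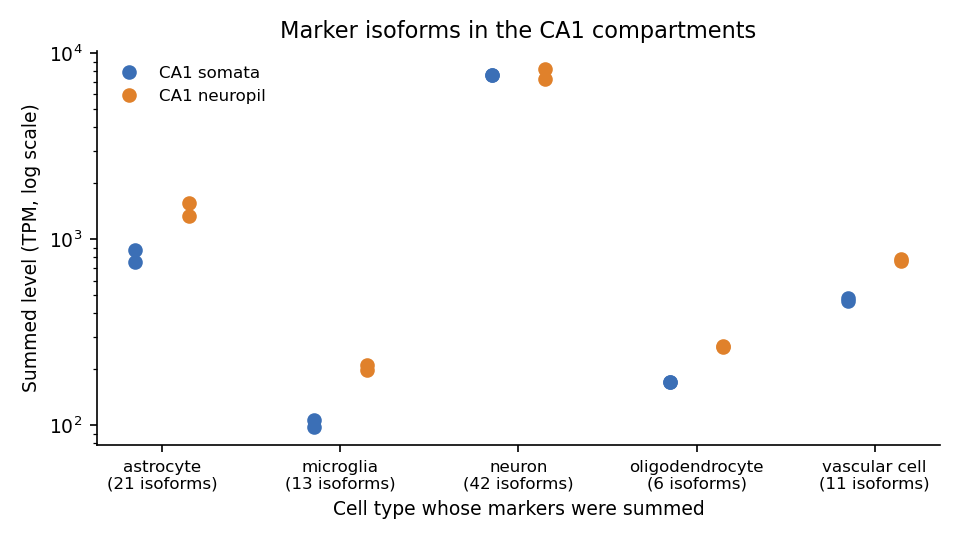
Summed TPM of the marker isoforms of each cell type in the 2 somata (blue) and 2 neuropil (orange) libraries, on a log axis. Only marker isoforms named in Supplementary Data 1 and 2 are summed. For the astrocyte, microglia, oligodendrocyte and vascular lists both neuropil points lie above both somata points, and for the neuron list the neuropil points, 7304 and 8258 TPM, lie on either side of the somata points. The microglia sum is mostly C1qb and the neuron sum mostly Cpe; without these, the microglia points overlap and both neuron points of the neuropil, 2307 and 2634 TPM, lie below those of the somata.

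In whole hippocampus, which the rule did not use, the selected isoforms had a median level above that of all isoforms. It was below that of the isoforms at 5 TPM or more in both neuropil libraries. For the selected isoforms the median of the mean hippocampus level was 8.33 TPM. Library medians were 7.31 TPM in replicate 1 and 8.90 TPM in replicate 2. For the 11574 isoforms at 5 TPM or more in both neuropil libraries the median was 29.1 TPM, for the 455 isoforms higher in the somata 9.67 TPM and for all isoforms 5.38 TPM. The isoforms at 5 TPM or more were also more abundant in the neuropil itself, where the median of their mean level was 30.1 TPM, beside 16.2 TPM for the selected isoforms. Both hippocampus libraries were at 5 TPM or more for 350 of the 680 (51.5%), compared with 84.5% of the isoforms at 5 TPM in both neuropil libraries. Both libraries listed 66 selected isoforms at 0 (9.71%), against 1.61% of the isoforms at 5 TPM in both neuropil libraries, 8.57% of those higher in the somata and 23.5% of all. Another 98 were at 0 in 1 library, and for 23 of them the other library gave 10 TPM or more. The log2 difference of hippocampus replicates had an SD of 1.48 over the selected isoforms and 1.04 over those at 5 TPM in both neuropil libraries. Between the neuropil replicates, which the rule forced to agree, it was 0.64 over the selected isoforms.

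Whole hippocampus contains both layers, and 461 of the 680 isoforms had a mean hippocampus level between the mean somata and the mean neuropil level. For 98 isoforms the hippocampus mean was above the neuropil mean, and for 121 it was below the somata mean. The rule sets the layers at least 2 times apart, which leaves room between them. No such counts were made for other isoforms, so no result is read from these. Median hippocampus levels were lower in classes with a larger selecting ratio, which were cut on the values of the rule. Neuropil levels of these classes were not compared, so ratio and abundance cannot be told apart here. The median was 11.1 TPM for the 388 isoforms with a ratio under 3, 7.55 TPM for the 113 with a ratio from 3 to 5, 5.44 TPM for the 58 at 5 or more and 3.07 TPM for the 121 listed at 0 in the somata. In the last set 30 isoforms (24.8%) were at 0 in both hippocampus libraries, beside 17 (4.38%) of those with a ratio under 3. Levels in hippocampus and neuropil went together across the 680 isoforms with Spearman's rho of 0.58, and across all 28268 isoforms with 0.84. These are correlations across isoforms of the same libraries, and isoforms are not independent replicates.

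At the top of the hippocampus range stood an isoform of 1012 nt, at 1248 and 1275 TPM there, at 84.7 and 124 TPM in the somata and at 572 and 296 TPM in the neuropil. An isoform of 2824 nt followed, at 883 and 844 TPM in whole hippocampus. It was also the most abundant selected isoform, with 1106 and 1125 TPM in the somata and 2430 and 2733 TPM in the neuropil. At the other end, 66 isoforms were tied at 0. Of these, an isoform of 1028 nt had the highest neuropil level, 973 and 204 TPM, after 66.7 and 52.6 TPM in the somata, and an isoform of 526 nt had 164 and 85.8 TPM in the neuropil and 9.56 and 17.8 TPM in the somata. Isoforms listed at 0 in whole hippocampus were therefore not only those near the limit of 5 TPM.

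Next to the isoform of 2824 nt, the highest neuropil levels were those of an isoform of 2751 nt (1590 and 1673 TPM) and one of 1519 nt (1337 and 1099 TPM). Isoforms of 1233 nt (814 and 901 TPM) and 5062 nt (861 and 828 TPM) completed the 5 most abundant. Their ratios ran from 2.16 to 2.45, so none was far from the limit. In the somata the 2751 nt isoform was at 521 and 654 TPM, the 1519 nt isoform at 384 and 448 TPM, the 1233 nt isoform at 266 and 338 TPM and the 5062 nt isoform at 367 and 357 TPM. Whole hippocampus differed from both layers for the 1519 nt isoform, which was listed there at 0 and 30.2 TPM.

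Among the 121 isoforms listed at 0 in both somata libraries, the highest neuropil level was that of an isoform of 1256 nt, at 59.6 and 107 TPM, which was at 0 in both hippocampus libraries. An isoform of 1393 nt had 48.8 and 50.6 TPM in the neuropil and 7.11 and 24.96 TPM in whole hippocampus. The third, of 2812 nt, had 38.9 and 53.1 TPM in the neuropil and 0.05 and 20.1 TPM in whole hippocampus. The 2 hippocampus libraries thus differed more than 3 times for both isoforms that they detected.

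**Figure D4:**
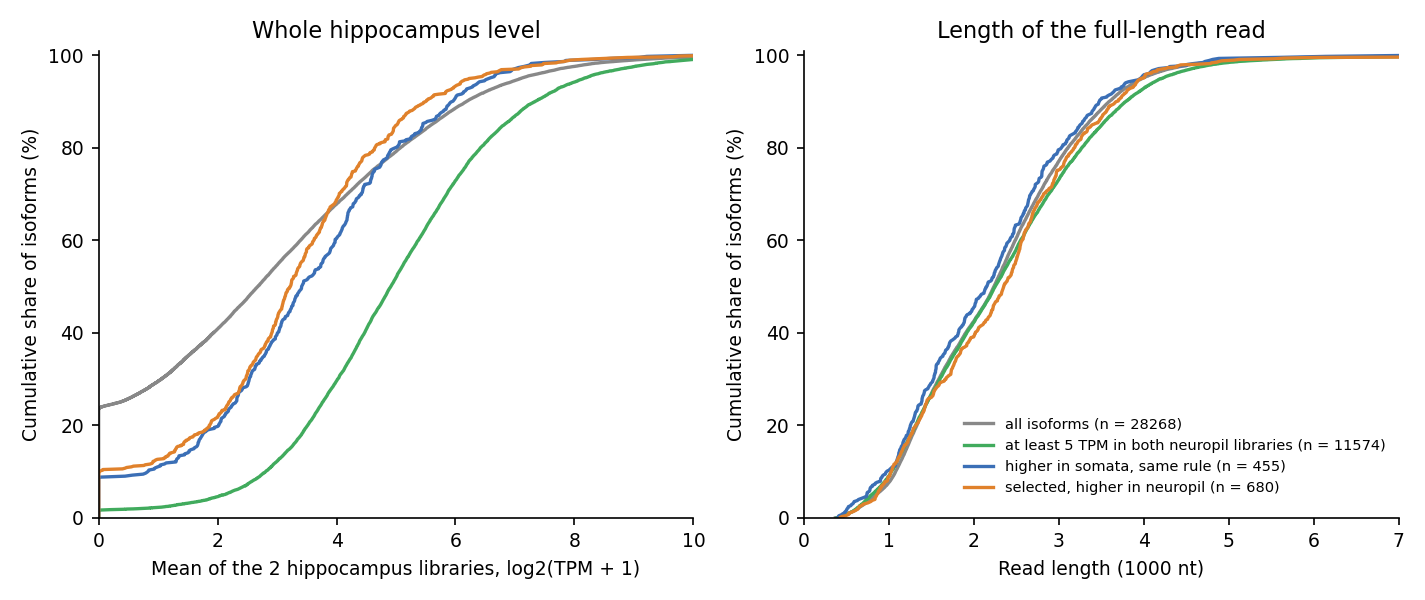
Cumulative shares of isoforms by mean whole hippocampus level, as log2(TPM + 1) (left), and by read length (right), for the selected isoforms (orange), the isoforms higher in the somata (blue), those at 5 TPM or more in both neuropil libraries (green) and all isoforms (gray). At the left edge, 9.71% of the selected isoforms and 23.5% of all are at 0, and the read length curves nearly coincide, with medians of 2351 and 2235 nt.

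Read length was close to that of the whole collection. The median was 2351 nt for the selected isoforms, with quartiles at 1445 and 2978 nt and a range from 431 to 9975 nt. It was 2235 nt over all isoforms, 2249 nt over those at 5 TPM in both neuropil libraries and 2154 nt over the isoforms higher in the somata. Reads up to 1000 nt made up 60 of the 680 (8.82%, against 7.66% of all), and reads above 4000 nt 34 (5%, against 4.82% of all and 7.10% of those at 5 TPM in both neuropil libraries). Within the selection, isoforms with a ratio of 5 or more and those at 0 in the somata had shorter median reads, 1938 and 2104 nt, than those with a ratio under 3, 2468 nt. These classes were cut on the values of the rule, and the difference was not tested. Identifiers begin with RNN or RSN, a prefix whose meaning is not given in the sources used here. RNN began 337 identifiers (49.6%) of the selected isoforms, 44.2% of all, 43.3% of those at 5 TPM in both neuropil libraries and 41.3% of the isoforms higher in the somata. By selecting ratio the share was 51.3% under 3, 48.7% from 3 to 5, 51.7% at 5 or more and 43.8% for the isoforms at 0 in the somata. The longest reads, of 9975 and 9423 nt, were at 10.7 and 10.4 TPM and at 7.83 and 13.6 TPM in the neuropil. The shortest, of 431 and 446 nt, were at 61.7 and 65.4 TPM and at 8.74 and 10.6 TPM.

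The distribution over ribosome fractions was the second measure that the rule did not use. Of the 680 isoforms, 609 (89.6%) averaged 1 TPM or more in the 6 fraction libraries and were tested, and 21 were listed at 0 in all 6. Levels on the log2(TPM + 1) scale were compared with limma over all 19667 isoforms that passed this filter, and a call means an adjusted p under 0.05. TPM are shares within a fraction, so a higher TPM in polysomes is a larger share of the polysome RNA, not a larger amount of RNA, and fold changes on this scale understate the change of low isoforms.

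The selected isoforms were spread over the fractions much like the whole collection. Against ribosome-free RNA, 206 of the 609 (33.8%) were higher in polysomes, where 34.1% of all tested isoforms were, and 52 (8.54%) were lower, where 11.1% of all were. The median log2 fold change was 0.82, and 0.63 over all. In monosomes 195 (32.0%) were higher than in ribosome-free RNA, with 32.1% of all, and 27 (4.43%) were lower, with 7.30% of all. Their median was 0.85, and 0.69 over all. Between polysomes and monosomes, 60 (9.85%) were higher in polysomes and 73 (12%) in monosomes, and each of these shares was 11.6% over all isoforms. The shares of higher isoforms lay near the background, and nothing in them is particular to the selected isoforms. The shares of lower isoforms were below it in both comparisons with ribosome-free RNA, a difference given without a test. For isoforms at 5 TPM in both neuropil libraries, which are more abundant, 48.2% were higher and 10.6% lower in polysomes than in ribosome-free RNA, and for the isoforms higher in the somata 26.0% and 7.83%.

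Scaling moved the balance of both sets together. Under quantile normalization 126 selected isoforms were higher and 89 lower in polysomes than in ribosome-free RNA (20.9% and 17.1% of all), and under median ratios 132 and 88 (21.3% and 17.7% of all). For monosomes the counts were 110 and 60 under quantile normalization (16.7% and 13.4% of all), and 105 and 54 under median ratios (15.4% and 14.9% of all). The median over all isoforms shifted from 0.63 to 0.14 under quantile normalization and to 0.12 under median ratios. Relative to that median, the selected isoforms stood 0.19 higher as deposited, 0.19 under quantile normalization and 0.21 under median ratios. For monosomes against ribosome-free RNA the difference was 0.15, 0.16 and 0.18. Among isoforms without a value at 0 the difference was smaller. Over the 374 selected isoforms above 0 in all 6 libraries the median for polysomes was 0.61, beside 0.58 over the 13047 such isoforms of the collection, and for monosomes 0.71 beside 0.62. Of the 258 selected isoforms called between polysomes and ribosome-free RNA, 60 (23.3%) were listed at 0 in both libraries of a fraction, compared with 15.1% of all calls.

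**Figure D5:**
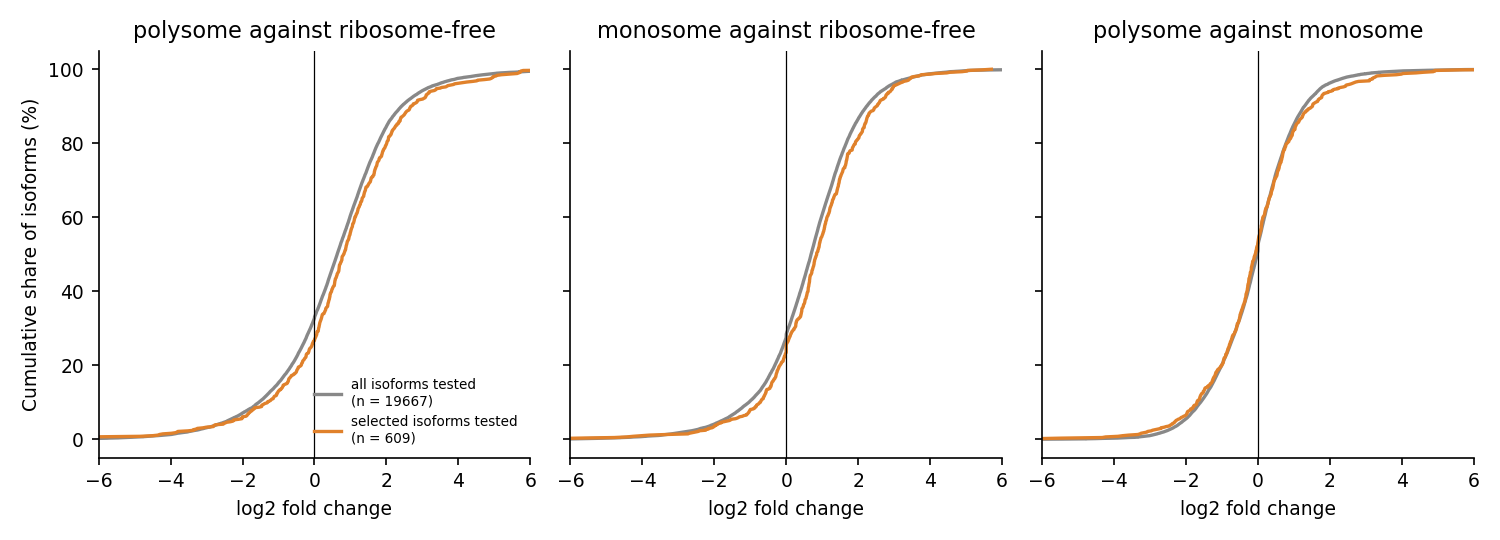
Cumulative shares of isoforms by log2 fold change between 2 fractions, on the log2(TPM + 1) scale, for the 609 selected isoforms tested (orange) and all 19667 tested (gray). The orange curve runs slightly to the right of the gray one in both comparisons with ribosome-free RNA, with medians of 0.82 and 0.63 for polysomes, and close to it in the comparison of polysomes with monosomes.

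Taking for each isoform the fraction in which both libraries were above the other 4, polysomes led for 157 of the 609 (25.8%, with 27.3% of all tested isoforms), monosomes for 155 (25.5%, with 23.7% of all) and ribosome-free RNA for 45 (7.39%, with 10.7% of all). No fraction led for 252. The shares led by polysomes and monosomes were near the background, and that led by ribosome-free RNA was below it, without a test. Among isoforms at 5 TPM in both neuropil libraries the shares were 37.4%, 24.7% and 9.08%. Under quantile normalization the counts of selected isoforms were 131, 102 and 96 (21.9%, 16.4% and 20.6% of all isoforms), and under median ratios 126, 104 and 95 (22.8%, 15.2% and 21.2% of all). The isoforms led by ribosome-free RNA had a median read of 1732 nt, those led by polysomes 2221 nt and those led by monosomes 2691 nt. Mean neuropil levels had medians of 15.2, 25.9 and 15.6 TPM in the same order, and hippocampus levels 6.86, 12.4 and 8.69 TPM. Reads up to 1000 nt had a median log2 fold change of 0.25 between polysomes and ribosome-free RNA (58 isoforms), and reads above 3000 nt one of 1.01 (154 isoforms). Over all isoforms these medians were -0.09 and 0.80. Spearman's rho between read length and the fold change was 0.12 over the 609 isoforms and 0.12 over all.

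The 22 isoforms with a gene name were all tested. In polysomes 11 were higher and 2 lower than in ribosome-free RNA, in monosomes 11 were higher and 1 lower, and 2 were higher in polysomes than in monosomes. Over all isoforms 34.1% and 11.1%, 32.1% and 7.30%, and 11.6% were called in the same directions. Quantile normalization gave 6 and 3, 5 and 1, and 2, and median ratios gave 8 and 3, 5 and 1, and 2. Of the 27 calls as deposited, 14 held under every setting that kept both libraries of each fraction compared and tested the isoform. They belonged to C1qb, Cpq, Emilin1, Ndrg2, Arih2, Gpr108, Slc27a1, Shisa4 and the Lgi4 isoform of 3699 nt. The Emilin1 isoform averaged under 5 TPM over the fraction libraries, so it was not tested with the stricter filter of 5 TPM. Some of the 14 calls were lost with a library left out, as given below.

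The C1qb isoform was at 19.3 and 25.2 TPM in ribosome-free RNA, 46.5 and 41.2 TPM in monosomes and 116 and 98.3 TPM in polysomes. It rose in polysomes over ribosome-free RNA by a log2 fold change of 2.22 (SE 0.18, limma adjusted p = 0.000684). The Ndrg2 isoform had the same order, with 12.7 and 16.6 TPM, 28.0 and 27.3 TPM and 66.9 and 60.4 TPM, and a log2 fold change of 2.06 (SE 0.17, limma adjusted p = 0.000744). For both isoforms no value of one fraction overlapped with another fraction. Their differences between polysomes and monosomes, 1.27 for C1qb (adjusted p = 0.00857) and 1.17 for Ndrg2 (adjusted p = 0.00935), did not pass with any of the 4 polysome and monosome libraries left out (log2 fold changes from 1.15 to 1.39 and from 1.10 to 1.25). Their differences between monosomes and ribosome-free RNA, 0.95 and 0.88, were lost under both scalings and without either monosome library (from 0.77 to 1.14 and from 0.70 to 1.06).

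The Cpq isoform was at 7.86 and 8.45 TPM in ribosome-free RNA, 21.6 and 28.5 TPM in monosomes and 30.9 and 26.0 TPM in polysomes. It rose by 1.68 in polysomes (SE 0.21, limma adjusted p = 0.00240) and by 1.496 in monosomes (adjusted p = 0.00502). The Emilin1 isoform was at 0.31 and 0 TPM in ribosome-free RNA, 9.53 and 7.51 TPM in monosomes and 5.56 and 6.65 TPM in polysomes. Its log2 fold changes were 2.63 for polysomes (SE 0.35, limma adjusted p = 0.00324) and 3.05 for monosomes (adjusted p = 0.00306). The Arih2 isoform was listed at 0 in both ribosome-free libraries, at 15.3 and 5.82 TPM in monosomes and at 17.7 and 10.8 TPM in polysomes (limma adjusted p = 0.00714 for monosomes and 0.00329 for polysomes, both against ribosome-free RNA). For Cpq and Arih2 the monosome and polysome values overlapped, and for Emilin1 both monosome values were above both polysome values without passing the test (adjusted p = 0.46).

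The Gpr108 isoform, for a Golgi membrane protein, went the other way, and it fell by 3.36 in polysomes against ribosome-free RNA (SE 0.44, limma adjusted p = 0.00297). It was at 16.5 and 18.0 TPM in ribosome-free RNA, 2.87 and 1.90 TPM in monosomes and 1.47 and 0.28 TPM in polysomes. Its fall of 2.45 in monosomes (adjusted p = 0.0113) was lost with a pseudocount of 0.1, without ribosome-free replicate 2 and without monosome replicate 2 (log2 fold changes from -2.65 to -2.24). Another listed Gpr108 isoform, of 2109 nt, was at 0 in both ribosome-free libraries, at 13.3 and 3.61 TPM in monosomes and at 9.89 and 13.4 TPM in polysomes. Within Gpr108 the isoform selected in neuropil and the 2109 nt isoform thus lay in different fractions. The Slc27a1 isoform also had its highest level in ribosome-free RNA, at 27.3 and 23.1 TPM, with 21.4 and 12.5 TPM in monosomes and 8.77 and 3.96 TPM in polysomes. Its log2 fold change of -1.91 (limma adjusted p = 0.0175) held under all settings with the 6 libraries, but not without ribosome-free replicate 1 or 2 or polysome replicate 2 (from -2.40 to -1.42).

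The other named isoforms passed less steadily. The Lgi4 isoform of 3699 nt was at 0.93 and 7.21 TPM in ribosome-free RNA, 46.2 and 37.3 TPM in monosomes and 33.1 and 49.2 TPM in polysomes. Its log2 fold change of 3.38 in polysomes (limma adjusted p = 0.0137) was lost without either polysome library (from 2.33 to 4.42). The Shisa4 isoform was at 39.9 and 23.8 TPM in ribosome-free RNA, 201 and 156 TPM in monosomes and 90.5 and 169 TPM in polysomes. Its monosome difference of 2.48 (adjusted p = 0.00726) was lost without monosome replicate 1 (from 2.12 to 2.84), and its polysome difference of 1.97 (adjusted p = 0.0115) was lost under both scalings and without ribosome-free or polysome replicate 2 (from 1.52 to 2.42). For Gsn, Med8, Vtn and Dpp7 the polysome differences of 1.62, 1.31, 1.51 and 1.79 were called as deposited (adjusted p from 0.00957 to 0.0150) and lost under quantile normalization. With a library left out, the call was lost without ribosome-free replicate 1 or polysome replicate 2 for Gsn (from 1.35 to 1.90), without either polysome library for Med8 (from 0.98 to 1.64) and Vtn (from 1.42 to 1.59) and without polysome replicate 1 for Dpp7 (from 1.46 to 2.12). For Gsn, Med8, Krtcap2 and Ncstn the monosome differences of 1.44, 1.22, 0.95 and 1.67 were called as deposited and lost under both scalings. Each was also lost with a library left out, for Gsn without ribosome-free replicate 1 or either monosome library (from 1.16 to 1.71), for Krtcap2 without replicate 1 of ribosome-free RNA or monosomes (from 0.80 to 1.10), and for Med8 (from 0.89 to 1.55) and Ncstn (from 1.12 to 2.22) without any of the monosome or polysome libraries. The monosome difference of the Lgi4 isoform, 3.42, was lost without any of these 4 libraries (from 2.37 to 4.46) and when only the ribosome-free and monosome libraries were fitted. The isoforms of Tinagl1, Glmp, Erlin2, Fcgrt, Armc5 and Sh3tc1 and the Lgi4 isoform of 2541 nt had no call in any comparison as deposited. Under other settings, polysomes against ribosome-free RNA passed for Tinagl1, as lower, under both scalings (lowest adjusted p = 0.0237), and both comparisons with ribosome-free RNA passed for Sh3tc1, as higher, with a constant prior variance (limma adjusted p = 0.0230 and 0.0354).

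Isoforms without a gene name gave the largest contrasts between fractions, and in most of them a fraction was listed at 0 in both libraries, for which no fold is given. The isoform of 1256 nt, named above as the highest of those at 0 in the somata, was at 0 in both ribosome-free libraries, at 0 and 8.88 TPM in monosomes and at 540 and 595 TPM in polysomes (limma adjusted p = 0.00193 against ribosome-free RNA). It thus stood high in polysomes of whole brain and was not listed above 0 in whole hippocampus. An isoform of 1020 nt was at 0 in both ribosome-free libraries, 16.1 and 50.2 TPM in monosomes and 139 and 136 TPM in polysomes (adjusted p = 0.000553). One of 2223 nt was at 0 in ribosome-free RNA, 33.2 and 4.11 TPM in monosomes and 51.1 and 58.8 TPM in polysomes (adjusted p = 0.00497). The call for the 2223 nt isoform was lost without either polysome library. Of the most abundant isoforms, that of 1233 nt was listed at 0 in all 4 ribosome-free and monosome libraries and at 35.6 and 66.5 TPM in polysomes (adjusted p = 0.00199 against monosomes), far below its 814 and 901 TPM in the neuropil. The isoform of 1228 nt was at 0 in ribosome-free RNA, 4.51 and 0 TPM in monosomes and 32.4 and 33.2 TPM in polysomes, and its call against monosomes (adjusted p = 0.0295) was lost without either polysome or either ribosome-free library. Against monosomes, the call of the 1256 nt isoform (adjusted p = 0.00849) was likewise lost without either polysome library.

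In the opposite direction, an isoform of 1732 nt fell from 138 and 102 TPM in ribosome-free RNA to 11.4 and 10.7 TPM in monosomes and 0 in both polysome libraries (limma adjusted p = 0.000175 for polysomes). An isoform of 1449 nt, at 122 and 80.7 TPM in the neuropil and 9.33 and 0.90 TPM in the somata, was at 151 and 67.2 TPM in ribosome-free RNA, 0 and 0.01 TPM in monosomes and 0 in polysomes (adjusted p = 0.000514). Whole hippocampus held it at 55.4 and 84.8 TPM, so this isoform was listed well above 0 in hippocampus and at or near 0 in both ribosome fractions of whole brain. An isoform of 1414 nt, at 0 in the somata, was at 44.5 and 197 TPM in ribosome-free RNA, 19.97 and 91.9 TPM in monosomes and 0 in both polysome libraries (adjusted p = 0.00422). The isoforms of 1347 nt and 636 nt were the others with the largest fall from monosomes to polysomes. The first went from 80.6 and 70.7 TPM in monosomes to 0 (limma adjusted p = 0.00156), at 51.6 and 114 TPM in ribosome-free RNA. The second went from 34.6 and 34.3 TPM to 0 and 2.12 TPM, a log2 fold change of -4.33 (adjusted p = 0.00721) that was lost without either monosome library (from -5.15 to -3.51). For the 1414 nt isoform the fall from monosomes to polysomes (adjusted p = 0.0161) was lost without monosome replicate 2 and without either polysome library.

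Some isoforms were set apart by monosomes. The 4154 nt isoform, at 31.2 and 30.0 TPM in the somata and 129 and 153 TPM in the neuropil, was listed at 0 in both ribosome-free libraries, at 45.8 and 57.0 TPM in monosomes and at 50.8 and 52.6 TPM in polysomes (limma adjusted p = 0.000316 for monosomes). The 3910 nt isoform rose from 1.12 and 3.93 TPM in ribosome-free RNA to 164 and 119 TPM in monosomes, a log2 fold change of 5.44 (SE 0.43, adjusted p = 0.00120), and to 155 and 185 TPM in polysomes. The 3649 nt isoform was at 0 in ribosome-free RNA, 27.9 and 36.2 TPM in monosomes and 10.8 and 7.61 TPM in polysomes (adjusted p = 0.000807 for monosomes). All 3 had reads longer than the third quartile of the selected isoforms. Low monosome values were found for an isoform of 1581 nt, at 53.0 and 57.0 TPM in ribosome-free RNA, 0 in both monosome libraries and 6.54 and 11.5 TPM in polysomes (limma adjusted p = 0.000712). An isoform of 2952 nt had the same pattern, at 19.8 and 21.5 TPM, 0 and then 7.41 and 14.5 TPM (adjusted p = 0.00148).

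Of the isoforms described singly, those of 2824, 1012, 1028, 526, 2751, 5062 and 1519 nt were above 50 TPM in each fraction library. The 2824 nt isoform was at 229 and 264 TPM in ribosome-free RNA, 1423 and 1502 TPM in monosomes and 368 and 429 TPM in polysomes. It rose by 2.57 in monosomes over ribosome-free RNA (SE 0.12, limma adjusted p = 0.000565) and fell by 1.88 from monosomes to polysomes (adjusted p = 0.00159). Its polysome difference of 0.69 was lost under both scalings. The 1012 nt isoform was at 620 and 734 TPM in ribosome-free RNA, 1616 and 1829 TPM in monosomes and 3973 and 3697 TPM in polysomes, a log2 fold change of 2.51 between polysomes and ribosome-free RNA (SE 0.12, limma adjusted p = 0.000268). The 1028 nt isoform, at 0 in whole hippocampus, had 481 and 636 TPM, 747 and 655 TPM and 2936 and 1985 TPM in the same order, and rose by 2.12 in polysomes over ribosome-free RNA (SE 0.24, adjusted p = 0.00175). This isoform was thus at 0 in both hippocampus libraries and abundant in every fraction of whole brain, which differ in tissue and in type of library. It was also at 973 and 204 TPM in the CA1 neuropil, and the reason for the 0 was not tested. The 526 nt isoform, also at 0 in whole hippocampus, fell by 1.06 in polysomes (SE 0.12, limma adjusted p = 0.00191), from 162 and 138 TPM in ribosome-free RNA to 70.9 and 71.2 TPM. The 2751 nt isoform was lowest in monosomes, at 140 and 137 TPM, with 206 and 227 TPM in ribosome-free RNA and 264 and 260 TPM in polysomes. Its fall of 0.64 in monosomes (adjusted p = 0.00510) and its rise of 0.91 from monosomes to polysomes (adjusted p = 0.00316) held under all settings and with any library left out. The 5062 nt isoform, at 202 and 227 TPM, 373 and 376 TPM and 294 and 269 TPM in the same order, changed the sign of its polysome difference, from 0.39 (adjusted p = 0.0256) to -0.14 under quantile normalization and -0.27 under median ratios, and lost its call without ribosome-free replicate 1 or any monosome or polysome library (from 0.31 to 0.47). For the 1519 nt isoform, at 347 and 353 TPM, 555 and 649 TPM and 573 and 649 TPM, the polysome difference of 0.80 from ribosome-free RNA was lost under both scalings and the monosome difference of 0.78 under median ratios.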

How the data were processed

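Illumina sequencing gave 12 libraries, 2 per group, for CA1 somata, CA1 neuropil, whole hippocampus and 3 gradient fractions of whole brain. Tissue libraries were made for mRNA and fraction libraries for total RNA. The 6 samples of ribosome footprinting were not used here. For the deposited TPM, the authors proceeded by trimming adapters with flexbar and quantifying reads on the 28268 full-length transcripts with RSEM and Bowtie 2. The submitters' processing notes also name TopHat2 and the build rn6. The version of RSEM is not given in the sources used here. TPM keep no depth, so counting intervals were not computed. RSEM divides reads among similar isoforms, which makes single isoforms of one gene uncertain. The authors made one table per experiment, and tests were run only within the table of fractions.

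The selection used the values as deposited, in hundredths of TPM. Fractions were compared with limma 3.58.1 in R 4.3.3 (two-sided, trended prior variance, Benjamini-Hochberg adjustment over all isoforms tested) on log2(TPM + 1), for isoforms that averaged 1 TPM or more in the 6 libraries. The design without a replicate term was used because same-numbered libraries did not deviate together (correlations of deviations of 0.003, 0.002 and -0.010). The fit was tested on simulated data. Counts and plots were made with Python 3.11.15, pandas 2.3.3 and matplotlib 3.10.9. Read lengths were read from the identifiers.

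Besides all isoforms listed in Supplementary Data 1 and 2, the isoforms described singly were fixed by rule. They were the 5 with the highest neuropil level, the 3 highest among those at 0 in the somata, the 3 highest and 3 lowest called log2 fold changes per comparison averaging 10 TPM or more without overlap, the 2 highest and 2 lowest in whole hippocampus, the 2 longest and 2 shortest reads, and isoforms next to each limit of the rule. The members, marker lists and comparisons were chosen with earlier results of these data known. Alternatives changed the pseudocount, the filter, the scaling, the prior variance, the libraries and the limits of the selection.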

Additional observations from a re-analysis of the deposited data

How the results depend on the processing

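The number of selected isoforms, 680, was 1072 with a limit of 1 TPM, 415 with 10 TPM, 1506 with a ratio of 1.5 and 292 with a ratio of 3, and from 1339 to 2490 with 1 of the 4 layer libraries left out. Without CA1 somata replicate 1 it was 1339 and without replicate 2 it was 1409. The larger numbers follow from the rule itself, which asks less of fewer libraries. The selected isoforms higher in polysomes than in ribosome-free RNA numbered 206 as deposited, 126 under quantile normalization, 132 under median ratios, 67 with a ratio of 3, and from 113 to 206 with a library left out. Those lower were 52, 89, 88 and 22, and from 43 to 52. For monosomes against ribosome-free RNA, 195 became 110, 105 and 55, and from 107 to 209, and 27 became 60, 54 and 13, and from 23 to 28. Between polysomes and monosomes, 60 and 73 became 19 and 23 with a ratio of 3, and from 24 to 76 and from 26 to 92 with a library left out. Both scalings and the ratio of 3 moved the counts against ribosome-free RNA by more than 1.5 times. Between polysomes and monosomes, the ratio of 3 did so. Among fits with a library left out, counts for polysomes against ribosome-free RNA moved without either polysome library. Those for monosomes against ribosome-free RNA moved without either monosome library, and those between polysomes and monosomes without any of these 4 libraries. The counts of higher isoforms over the whole collection fell in the same fits. Polysomes led for 157 of 609 isoforms (25.8%) as deposited and for 62 of 246 (25.2%) with a ratio of 3. Over all isoforms tested the share was 27.3%. Why fewer isoforms were higher after scaling was not tested. The median hippocampus level of 8.33 TPM was 5.32 TPM with a ratio of 3 and from 7.31 to 8.90 TPM with a library left out. With a replicate block the counts were 179 and 51, 177 and 28, and 44 and 57, and all remained within 1.5 times. Of the 83 calls of isoforms described singly, 55 held under those of the 9 settings with both libraries of each fraction compared that tested the isoform. The filter of 5 TPM left 79 of the 83 tested, and the others could not be lost there. Some of the 55 were lost with a library left out. The isoform of 5062 nt alone changed sign, to -0.14 under quantile normalization and -0.27 under median ratios. Fits with a library left out assume that the single library of that fraction varies like the others. Depth, which TPM do not keep, and the sharing of reads among similar isoforms limit every value listed near 0.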
